A study of Rattus rattus with 18 samples.

Results

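The miR-29 family was followed in rat brain through 5 probes, those for rno-miR-29a-3p, rno-miR-29b-3p, rno-miR-29c-3p, rno-miR-29a-5p and rno-miR-29c-5p, out of 761 rat miRNA probes on the array. Members were taken by name, with earlier results of these data known, and all 5 passed the filter on dim probes (532 of 761 probes passed). The array carried 7 rno-miR-29 probes in all; the other 2, rno-miR-29b-5p and rno-miR-29b-1-5p, are given at the end of the family's values. Sprague Dawley rats of 3 treatments were compared, 3 rats each: sham operation, transient middle cerebral artery occlusion (tMCAO), in which the artery supplying much of the cerebral hemisphere is closed and then reopened, and remote limb postconditioning (PostC), in which blood flow to a limb is briefly interrupted to protect a distant organ. Each rat gave 1 array of the ischemic core (or, after sham surgery, its counterpart) and 1 array of the region labelled peri, so 18 arrays in 6 groups were compared. The labels do not say whether PostC rats also had tMCAO, and the paper's text does not mention them. The labels place core in temporo-parietal cortex and peri in striatum while the paper's methods say the reverse, so the regions are called core and peri here. Age was not stated in the sources used here, nor which of the paper's times of sacrifice applies to the arrays. Samples were pieces of whole tissue, in which fewer cells of a type and less miRNA per cell cannot be told apart.

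MicroRNAs are short RNAs that pair with messenger RNAs, mostly through bases 2 to 8 (the seed), and lower their translation and stability. The miR-29 family is made from precursor pairs in which miR-29b sits beside miR-29a at one locus and beside miR-29c at another. Its 3p arms are the usual guide strands; the 5p arms come from the opposite side of the hairpin and are mostly degraded. Known targets include the DNA methyltransferases Dnmt3a and Dnmt3b, TET enzymes, collagens and other matrix proteins, and, in maturing neurons, BH3-only messengers of cell death such as Bim, Bmf, Hrk and Puma. In brain the family is known to rise as neurons mature and to be abundant in astrocytes.

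The mature sequences are shown because the guide arms differ by few bases, which matters when their probes give different changes. They are written 5′ to 3′ as the array files list them, with the seed in capitals.

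rno-miR-29a-3p: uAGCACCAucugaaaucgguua
rno-miR-29b-3p: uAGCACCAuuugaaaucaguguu
rno-miR-29c-3p: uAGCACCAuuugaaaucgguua
rno-miR-29a-5p: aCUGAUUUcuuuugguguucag
rno-miR-29c-5p: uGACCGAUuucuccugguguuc

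The 3 guide arms shared the seed AGCACCA, which no other of the 761 probes had, and each of the 5p arms had a seed of its own. Counting positions from 1 at the 5′ end and giving the base of the first-named miRNA first, miR-29a-3p and miR-29c-3p differed by C10U alone. Between miR-29c-3p and miR-29b-3p the differences were G18A, U21G and A22U, and miR-29b-3p is 1 base longer, at 23 bases. The end of miR-29b-3p, AGUGUU, known as a nuclear import element, was found on 2 of 761 probes, the other being miR-92b-5p. Outside the family the probe closest to the guide arms was rno-miR-3590-3p, which differed at 7 positions from miR-29a-3p and miR-29c-3p and at 8 from miR-29b-3p (ungapped, with a difference in length counted). Binding of miR-29a-3p and miR-29c-3p to each other's probe was not tested.

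Levels are given as normalized log2 intensity, where 1 unit is a doubling of the brightness, and are compared between samples of 1 probe only. A probe counted as detected on an array where its median spot lay above a limit set from the empty spots of that array. Between 188 and 605 probes were detected per array, with group medians from 213 in tMCAO peri to 480 in sham core, and the limit ranged from 49.1 to 566 intensity units. Precision is limited by how few arrays there were. As a check of the tissue, 8 of 8 neuronal miRNAs, among them miR-124-3p and miR-128-3p, were detected on every core array. Each treatment had 3 rats, and the p-values measure the spread among them.

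In core, miR-29b-3p fell after tMCAO, and it was the only member whose change passed the adjusted threshold in any of the 14 comparisons made. Its core levels in sham rats 1, 2 and 3 were 11.46, 13.88 and 12.47 (mean 12.60 ± 1.21, SD, n = 3). In tMCAO rats they were 8.94, 7.79 and 9.43 (8.72 ± 0.84), and in PostC rats 7.29, 9.31 and 10.85 (9.15 ± 1.79). All 6 core values of the tMCAO and PostC rats lay below the lowest sham rat, whereas the tMCAO and PostC groups overlapped. Before normalization the miR-29b-3p spots read 3180, 16306 and 6733 units in sham core and 406, 163 and 674 units in tMCAO core, where the detection limits were 77.4, 113 and 240 units. It was detected on 17 of 18 arrays, the exception being core of PostC rat 1, at 48.5 units against a limit of 179. In the authors' normalized intensities miR-29b-3p averaged 7071 ± 5456 units in sham core, 380 ± 248 in tMCAO core and 844 ± 969 in PostC core.

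In peri the levels of miR-29b-3p were closer together. They were 10.46, 10.56 and 9.78 in sham rats (10.27 ± 0.43), 8.63, 9.76 and 9.43 in tMCAO rats (9.27 ± 0.58) and 11.74, 10.00 and 11.05 in PostC rats (10.93 ± 0.88). The tMCAO rats were below every sham rat by a narrow margin, and the PostC rats overlapped the sham rats. Before normalization the spots read 1839, 2379 and 1158 units in sham peri. In tMCAO peri they read 105, 752 and 447 units, close to the detection limits of 80.9, 346 and 338 units. From highest to lowest mean the groups ran sham core, PostC peri, sham peri, tMCAO peri, PostC core and tMCAO core, and only sham peri and tMCAO peri were neighbours in that order without overlapping values.

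**Figure D1:**
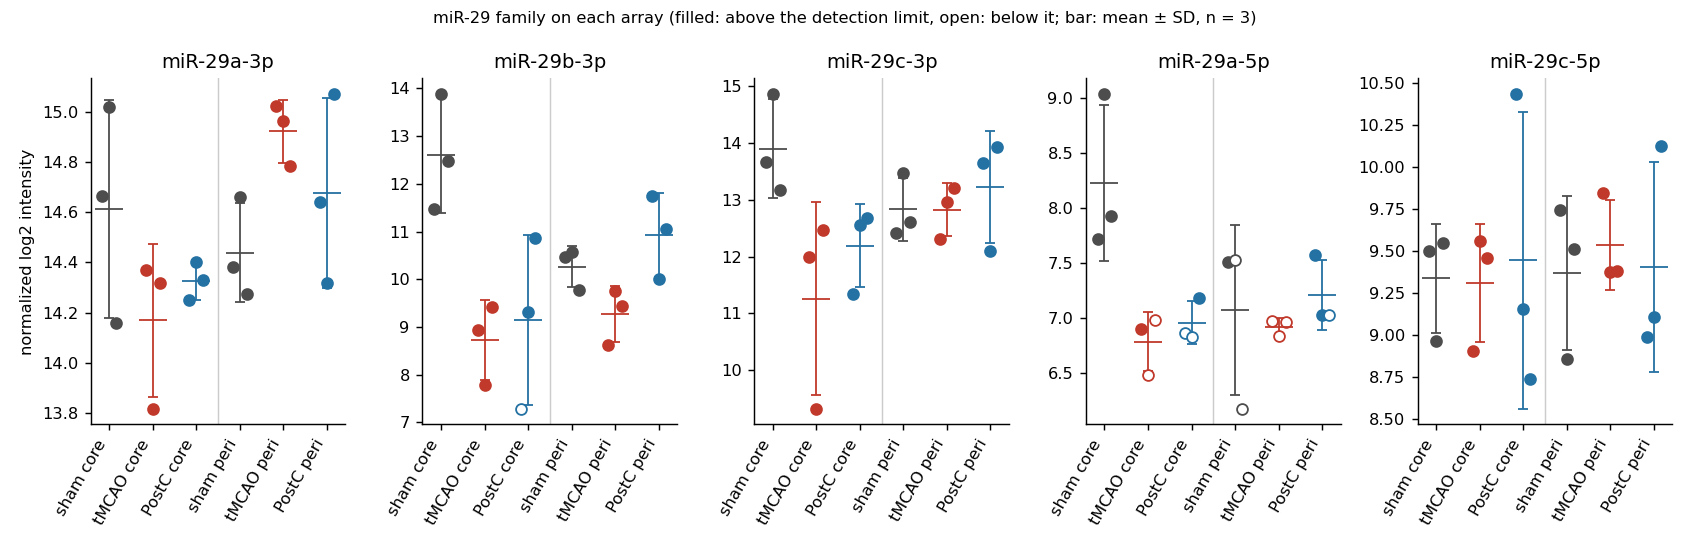
Normalized log2 intensity of each of the 5 miR-29 probes by region and treatment, 1 point per rat (filled above the detection limit, open below it) with the mean ± SD of 3 rats; each panel has its own scale. In core, miR-29b-3p was between 11.46 and 13.88 in sham rats and between 7.79 and 9.43 in tMCAO rats, while miR-29c-5p showed overlapping groups throughout.

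For miR-29b-3p in core the log2 change of tMCAO against sham was -3.89 (standard error 0.90, 95% interval -5.88 to -1.89, limma adjusted p = 0.0427), or 14.8-fold lower, the lowest of all 532 probes tested. Of those probes 3.38% were called in this comparison and 1.69% were called lower, against 1 of the 5 miR-29 probes. This core call was close to the threshold: it was lost on leaving out tMCAO rat 1, 2 or 3 (adjusted p = 0.138, 0.195 and 0.0516), sham rat 1, 2 or 3 (0.0848, 0.164 and 0.0994) or PostC rat 2 (0.0741), since the 3 treatments share the estimate of spread. Over the 9 omissions the log2 change lay between -4.46 and -3.25. It was also lost in the authors' normalized intensities and in 8 other alternative settings.

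Averaged over core and peri of each rat, miR-29b-3p was 10.96, 12.22 and 11.12 in sham rats and 8.79, 8.78 and 9.43 in tMCAO rats, with a gap between the groups. The tMCAO means hold peri values that were, before normalization, 1.29, 2.18 and 1.32 times the detection limit. The log2 change was -2.44 (standard error 0.44, 95% interval -3.42 to -1.46, limma adjusted p = 0.00951), or 5.42-fold lower and the 2nd lowest of 532. In this comparison 11.8% of probes were called, 7.33% were called lower, and 23.3% had groups separate in the lower direction. Leaving out tMCAO rat 2 took the adjusted p to 0.0599 at a log2 change of -2.33, and the call held without each of the other 8 rats. In peri alone the log2 change was -0.99 (95% interval -2.02 to 0.04, limma adjusted p = 0.331), with the groups not overlapping; 0.564% of probes were called there, none of them lower, and 16.0% had groups separate in the lower direction. By the scaling that sets all arrays to 1 median, under which the median change of all probes in peri was -0.42, the peri change of miR-29b-3p was -2.17 (-1.75 relative to that median) and passed, at an adjusted p of 0.0218.

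The other guide arms, which carry the same seed, did not pass as processed here. miR-29c-3p in core was 13.66, 14.85 and 13.16 in sham rats (13.89 ± 0.87), 12.00, 9.33 and 12.46 in tMCAO rats (11.26 ± 1.69) and 11.35, 12.55 and 12.68 in PostC rats (12.19 ± 0.73). The sham rats were above all others, and tMCAO rat 2 was the lowest of all, as it also was for miR-29b-3p within its group. The log2 change after tMCAO was -2.63 (standard error 0.77, 95% interval -4.34 to -0.92, limma adjusted p = 0.104), the 9th lowest of 532. Without 1 rat it ran from -3.23 (without tMCAO rat 3) to -1.66 (without tMCAO rat 2). In the rat means it was -1.32 (adjusted p = 0.0765, groups separate), with -0.87 without tMCAO rat 2 and -1.71 without tMCAO rat 3, where it passed the threshold (adjusted p = 0.023). It also passed in the rat means under 4 alternative settings, namely median scaling (adjusted p = 0.0191), quantile normalization (0.0344), plain subtraction of the empty spots (0.0349, where miR-29b-3p did not pass) and only probes detected on all arrays (0.0478), and in core under quantile normalization (0.0379) and only probes detected on all arrays (0.0465). In peri the sham rats were at 12.42, 13.46 and 12.62 and the tMCAO rats at 12.31, 12.95 and 13.20, overlapping, with a log2 change of -0.01 (standard error 0.45, adjusted p = 0.995). Under median scaling the peri change was -0.87, or -0.45 relative to the median of all probes.

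miR-29a-3p, 1 base away from miR-29c-3p, gave small differences. Before normalization it was the brightest miRNA probe on the arrays of sham core rats 1 and 2, tMCAO peri rat 2 and PostC peri rat 3. Whether its changes show in full at that brightness was not tested. Its core levels were 14.66, 15.02 and 14.16 in sham rats, 14.37, 13.82 and 14.32 in tMCAO rats and 14.25, 14.40 and 14.33 in PostC rats. All groups overlapped in core, and the log2 change after tMCAO was -0.44 (standard error 0.23, limma adjusted p = 0.270). Without 1 rat it ran from -0.67 to -0.24, and over the alternative settings from -0.98 to -0.03. In peri the tMCAO rats, at 15.02, 14.96 and 14.78, were all above the sham rats, at 14.38, 14.66 and 14.28. That difference of 0.48 (standard error 0.20, adjusted p = 0.265) did not pass, was -0.09 under median scaling (0.33 relative to the shifted median), and 15.6% of all probes tested had groups separate in the higher direction in peri.

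Of the 5p arms, miR-29a-5p was dim: it was detected on 8 of 18 arrays, on all 3 of sham core but on 1 each of tMCAO core and PostC core. Its core levels were 7.72, 9.04 and 7.93 in sham rats (8.23 ± 0.71), 6.90, 6.48 and 6.98 in tMCAO rats and 6.87, 6.83 and 7.18 in PostC rats, so that every sham rat was above all 6 others. The fitted log2 change after tMCAO in core was -1.44 (standard error 0.36, limma adjusted p = 0.0647), a value taken against arrays mostly not above background, and it ran from -4.33 to -0.77 over the alternative settings. It passed without PostC rat 3 (adjusted p = 0.0468). Its detected arrays in peri were 1 sham, no tMCAO and 2 PostC arrays, so its changes in peri and between regions compare values mostly under the limit, and they are left out of the counts of direction for peri and for core against peri. In the rat means, which hold those peri values, the fitted change was -0.79 (adjusted p = 0.0707), with a range of -2.74 to -0.38 over the settings, and it passed without sham rat 3 (adjusted p = 0.0254). miR-29c-5p was detected on all 18 arrays with group means between 9.31 and 9.53, and its core change after tMCAO was -0.03 (standard error 0.49, adjusted p = 0.986).

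The 5 log2 changes in tMCAO core were thus all below 0, with that of miR-29c-5p turning above 0 under quantile normalization and under both plain background subtractions. Their median was -1.44, which is the value of the dim miR-29a-5p, beside a median of -0.05 over all 532 probes. Groups did not overlap, in the lower direction, for 3 of 5 members, and 24.2% of all probes tested did the same. In peri, leaving out miR-29a-5p, 2 members were below 0 and 2 above (all 4 below 0 under median scaling, with miR-29a-3p above the median of all probes, -0.42).

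**Figure D2:**
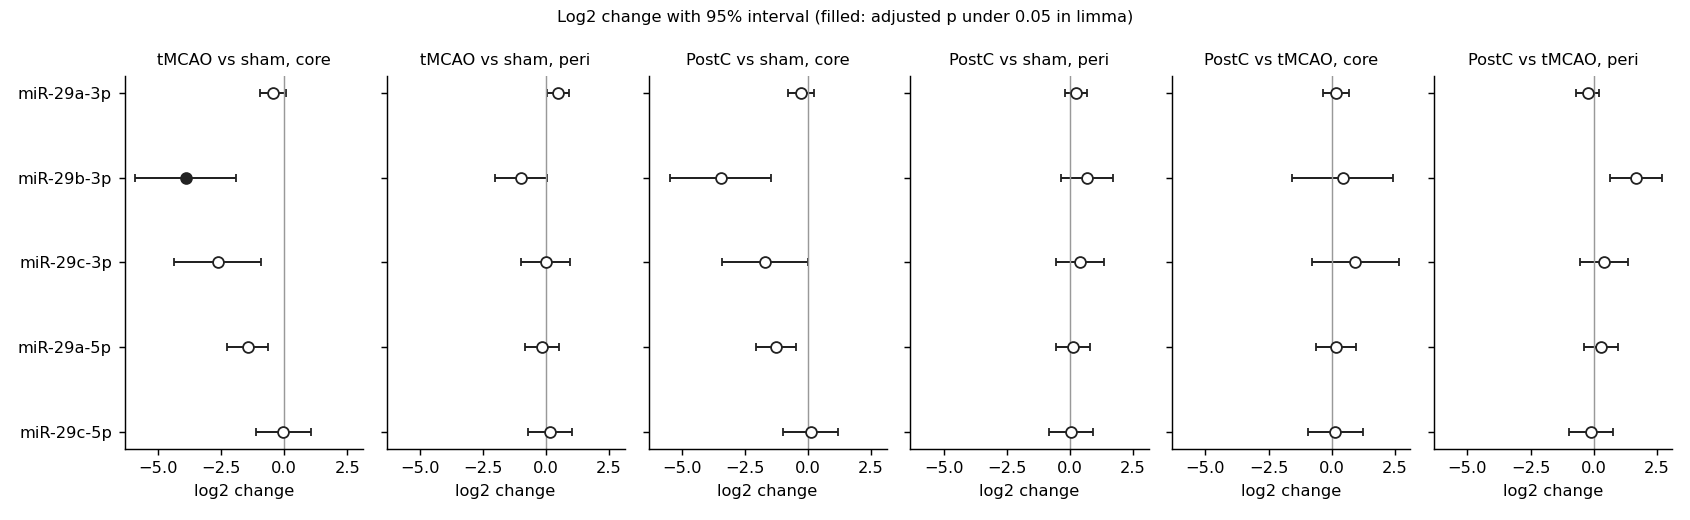
Log2 change of each miR-29 probe for tMCAO against sham, PostC against sham and PostC against tMCAO, in core and in peri, with 95% intervals from limma (3 rats per group; filled points passed at an adjusted p under 0.05). For tMCAO against sham in core the points run from -3.89 for miR-29b-3p to -0.03 for miR-29c-5p.

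**Figure D3:**
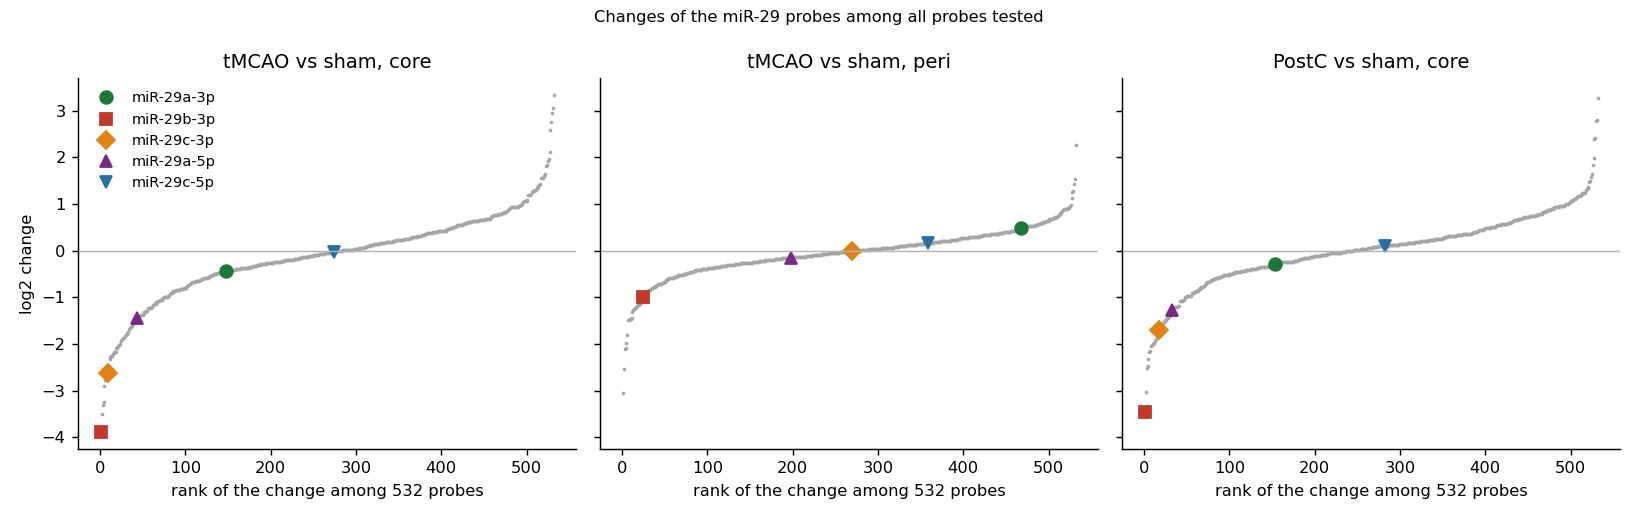
Log2 change (vertical) against its rank from the lowest (horizontal) for all 532 probes tested, for tMCAO against sham in core and in peri and PostC against sham in core, with the miR-29 probes marked. In tMCAO core miR-29b-3p is the lowest of all at -3.89 and miR-29c-3p is 9th lowest at -2.63.

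PostC rats were compared with the same sham rats, so these values are not independent of those for tMCAO. In core miR-29b-3p differed by a log2 change of -3.46 (standard error 0.90, 95% interval -5.45 to -1.46, unadjusted p = 0.00313, limma adjusted p = 0.111), the lowest of 532 and without overlap, but it did not pass. Without PostC rat 1, whose core array was under the detection limit, it was -2.52. No probe passed in this comparison (0 of 532 by limma and 0 by the methods' t-test), while 16.9% reached an unadjusted p under 0.05 by limma and 11.1% had groups separate in the lower direction. For miR-29c-3p the core change was -1.70 (adjusted p = 0.291) and for miR-29a-5p -1.27 (adjusted p = 0.130), both without overlap, the latter from a probe detected on 1 of the 3 PostC core arrays. Over the 5 members 4 changes were below 0 (5 under median scaling, and 3 with the GC trend removed, where miR-29a-3p turned), and their median was -1.27, again the value of miR-29a-5p, beside 0.06 for all probes.

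In peri the changes of PostC against sham were above 0 for the 4 members other than miR-29a-5p, and no member passed; under median scaling, where the median change of all probes was -0.19, those of miR-29a-3p, miR-29c-3p and miR-29c-5p were below 0, as was that of miR-29c-5p under 3 other settings (adjusted p = 0.991 for miR-29b-3p and for miR-29c-3p by limma). The changes there were 0.66 for miR-29b-3p (0.26 without PostC rat 1, 1.13 without PostC rat 2, and 0.06 under median scaling) and 0.40 for miR-29c-3p (0.04 without PostC rat 3 and 0.96 without PostC rat 2), beside a median of 0.03 over all probes. Over all probes 0 of 532 passed by limma or the methods' t-test, and an unadjusted p under 0.05 was found for 2.63%. Taking the mean of both regions, miR-29b-3p had a log2 change of -1.40 (adjusted p = 0.260, the lowest of 532), its PostC values of 9.52, 9.65 and 10.95 all lying under the lowest sham rat, as for 7.52% of probes; 0.188% were called.

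Against tMCAO, miR-29b-3p in PostC core differed by 0.43 (standard error 0.90, 95% interval -1.56 to 2.43, limma adjusted p = 0.889), an interval wide enough to hold a difference of several fold either way. The sign turned under 2 of the background corrections. In peri every PostC rat was above every tMCAO rat, by a log2 change of 1.66 (standard error 0.48, 95% interval 0.63 to 2.68, unadjusted p = 0.00406, adjusted p = 0.619). By limma 0 of 532 probes passed in that comparison and 0 by the methods' t-test, 5.83% had an unadjusted p under 0.05, and 3.20% had groups separate in the higher direction. Without PostC rat 3, 59 probes passed there by limma, miR-29b-3p not among them (adjusted p = 0.0651). In the rat means the difference was 1.04 (adjusted p = 0.232), again without overlap, as for 18.6% of probes in that direction. It was 0.59 without PostC rat 3 and ran from 0.36 to 1.38 over the alternative settings. Of all probes 5.64% were called, 30 probes, with 9 (without tMCAO rat 2) to 46 (without sham rat 2) on leaving out 1 rat. In core 2.26% were called, none of them a miR-29 probe.

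In sham rats miR-29b-3p and miR-29c-3p were brighter in core than in peri in every rat, but neither difference passed. The core minus peri difference of miR-29b-3p was 1.00, 3.32 and 2.70 in sham rats 1, 2 and 3, the highest mean difference of 532 probes at 2.34 (standard error 0.80, unadjusted p = 0.0169, limma adjusted p = 0.837), with 1.85 to 3.01 on leaving out 1 rat, the latter without sham rat 1. For miR-29c-3p it was 1.24, 1.39 and 0.55 (mean 1.06, adjusted p = 0.972). All 3 sham rats were higher in core for 21.8% of all probes. No probe passed in this comparison by limma or the methods' t-test, and 5.45% reached an unadjusted p under 0.05 by limma.

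In tMCAO rats miR-29c-3p and miR-29a-3p were dimmer in core than in peri in every rat. The differences for miR-29c-3p were -0.31, -3.63 and -0.75 (mean -1.56, standard error 0.66, unadjusted p = 0.0427, limma adjusted p = 0.399) and for miR-29a-3p -0.65, -1.14 and -0.46 (mean -0.75, adjusted p = 0.275), neither of which passed, and without tMCAO rat 2 the mean of miR-29c-3p was -0.53; 24.6% of probes were lower in core in all 3 rats and 0.940% were called. For miR-29b-3p the rats were mixed, at 0.31, -1.98 and -0.01. The mean differences of the 4 members other than miR-29a-5p were below 0, but under median scaling, where the median of all probes was 0.11, those of miR-29b-3p (0.10), miR-29a-3p and miR-29c-5p were above 0, and only that of miR-29c-5p was above the median. In PostC rats miR-29b-3p was lower in core in all 3 rats, at -4.46, -0.69 and -0.20 (mean -1.78, limma adjusted p = 0.485), as for 10.2% of probes. In PostC rats 0 of 532 probes passed by limma and 1 by the methods' t-test, with 9.77% at an unadjusted p under 0.05 by limma; without PostC rat 2, 18 passed by limma, none of them a miR-29 probe. Rat 1, with the widest gap, was the one in which core was under the detection limit, and without it the mean was -0.44. Over the alternative settings the mean of miR-29b-3p in PostC rats ran from -3.66 to -1.59.

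The test of the regional difference between treatments showed no call. For tMCAO against sham the core change exceeded the peri change, downward, by -2.89 for miR-29b-3p (standard error 1.13, unadjusted p = 0.0307, limma adjusted p = 0.454), by -2.62 for miR-29c-3p and by -0.93 for miR-29a-3p (adjusted p = 0.425 for both). Without tMCAO rat 2 the value of miR-29c-3p was -1.59. That of miR-29b-3p ran from -3.56 (without sham rat 1) to -2.18 (without tMCAO rat 2) and was -1.91 under median scaling, where the median of all probes was 0.24. Under that scaling the value of miR-29a-3p turned to 0.016, which is -0.22 relative to that median. For PostC against sham it was -4.12 for miR-29b-3p (unadjusted p = 0.00533, limma adjusted p = 0.309), and -2.78 without PostC rat 1. By limma and by the methods' t-test 0 of 532 probes passed in either comparison, and 8.65% and 10.5% had an unadjusted p under 0.05 by limma.

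**Figure D4:**
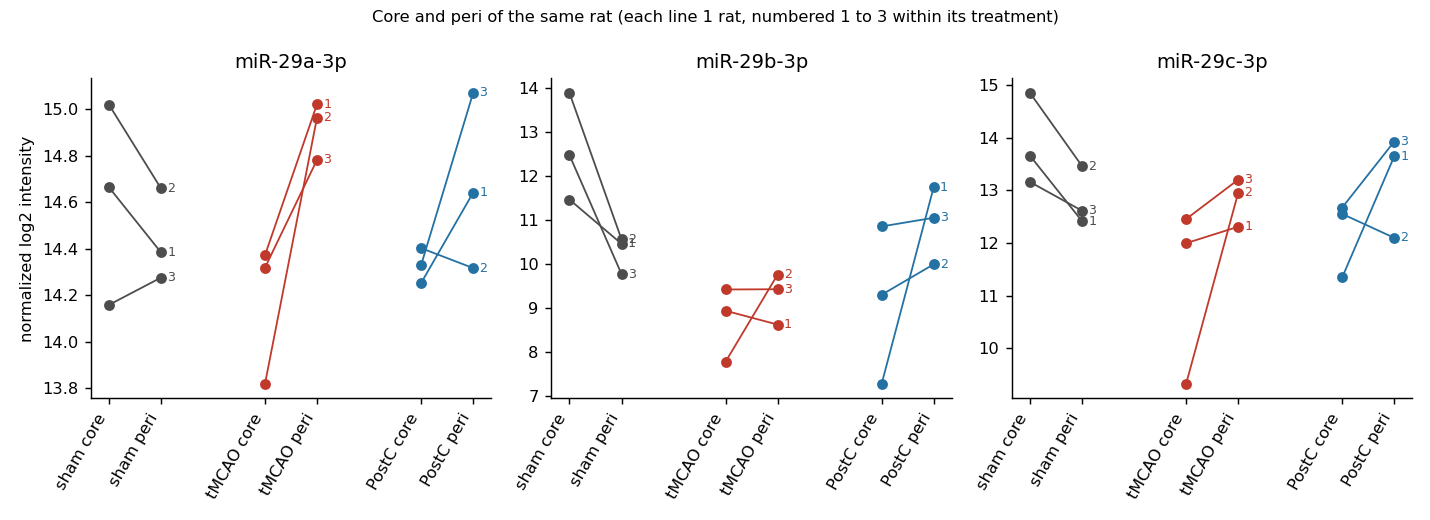
Normalized log2 intensity of the 3 guide arms in core and in peri, with a line joining the regions of each rat (3 rats per treatment); each panel has its own scale. For miR-29b-3p core is above peri in every sham rat (by 1.00 to 3.32) and below it in every PostC rat (differences of -4.46 to -0.20).

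The guide arms can be set against each other within an array, where a factor common to the whole array drops out. This comparison was chosen after the values were seen. Only its change between groups is read, since 2 probes differ in brightness at equal amounts. miR-29a-3p was the brightest probe on some arrays, and whether its changes show in full was not tested. In core the difference of miR-29b-3p minus miR-29a-3p lay between -3.20 and -1.14 in sham rats and between -6.03 and -4.89 in tMCAO rats, a change of -3.44, and it changed by -3.17 in PostC rats (-2.28 without PostC rat 1, whose miR-29b-3p was under the detection limit, and -4.02 without PostC rat 3). In peri it changed by -1.47 after tMCAO, without overlap, and by 0.43 in PostC rats, with overlap (0.004 without PostC rat 1 and 0.72 without PostC rat 2). For miR-29c-3p minus miR-29a-3p the core change was -2.19 after tMCAO and -1.41 in PostC, again without overlap. The peri change of that pair after tMCAO was -0.49, with overlap (-0.19 without tMCAO rat 1 and -0.75 without tMCAO rat 3). Without tMCAO rat 2 the core change of that pair was -1.39. For miR-29b-3p minus miR-29c-3p the core changes were -1.26 after tMCAO and -1.76 in PostC, both with overlap, and the peri change after tMCAO was -0.98, without overlap. After tMCAO in core the uncorrected spots gave -1.65 for this pair and the authors' normalized intensities -1.59, both without overlap. In PostC core they gave -2.06 and -2.21, both with overlap. Of the 12 such differences 6 reached p = 0.1, the smallest that a two-sided exact permutation test of 3 rats against 3 can give, or 0.2 after Benjamini-Hochberg adjustment over the 12, so none could pass. In the spots before any correction the miR-29b-3p minus miR-29a-3p change in core was -4.08, and in the authors' normalized intensities it was -3.77. For PostC core the same sources gave -3.48 and -3.60, both with overlapping groups. These differences are a description, and since that test could not pass with 3 rats a group, whether the guide arms changed unequally was not decided.

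**Figure D5:**
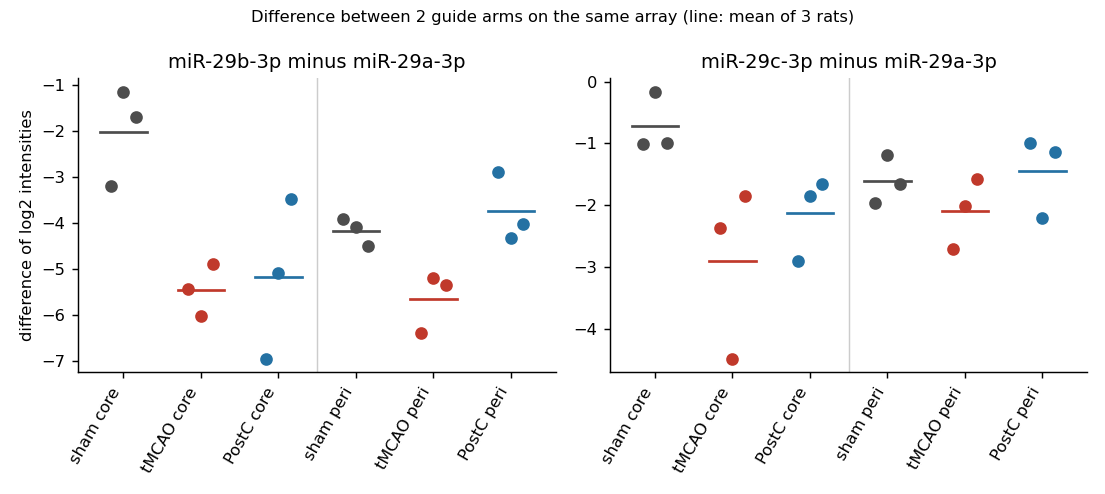
Difference in normalized log2 intensity on the same array of miR-29b-3p minus miR-29a-3p and of miR-29c-3p minus miR-29a-3p, by region and treatment, 1 point per rat with a line at the mean of 3 rats. For miR-29b-3p minus miR-29a-3p in core, sham rats lie between -3.20 and -1.14 and tMCAO rats between -6.03 and -4.89.

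Across the 18 arrays of 9 rats, which share rats, group differences and normalization, miR-29b-3p varied with miR-29a-5p (Pearson r = 0.830) and miR-29c-3p (r = 0.816) more closely than with miR-29a-3p (r = 0.379), and its r with miR-29c-5p was -0.399. The r between miR-29a-3p and miR-29c-3p was 0.732. Among the 526 tested probes outside the family, miR-338-3p was most like miR-29b-3p (r = 0.955), followed by miR-15a-5p (0.929), miR-101a-3p (0.870) and miR-27a-3p (0.864). For miR-29c-3p the closest were miR-30a-5p (r = 0.934), miR-186-5p (0.931), miR-582-5p (0.911) and miR-15a-5p (0.895). For miR-29a-3p they were miR-30c-5p (r = 0.925), miR-872-5p (0.860), miR-539-5p (0.832) and miR-450a-5p (0.829). The lowest r were with miR-346 (-0.866) and miR-433-3p (-0.858) for miR-29b-3p, with miR-151-3p and miR-409a-3p (-0.818) for miR-29c-3p, and with miR-434-3p and miR-23a-3p (-0.795) for miR-29a-3p. Apart from miR-15a-5p, no probe was on more than 1 of the guide arms' lists of closest probes.

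The base composition of the probes moved with the changes. The targets of the guide arms are poor in G and C (40.9% for miR-29a-3p, 34.8% for miR-29b-3p and 36.4% for miR-29c-3p, against a median of 50% over the probes tested), and over the 532 probes the log2 change after tMCAO correlated with GC content at a Spearman rho of 0.390 in core and 0.119 in peri, given as a description across probes of the same arrays. With the GC trend removed from each array, miR-29b-3p in core changed by -3.11 (limma adjusted p = 0.0342), while miR-29c-3p went from -2.63 to -1.96, miR-29a-5p from -1.44 to -0.77 and miR-29a-3p from -0.44 to -0.03, none of which passed. The 5p arms lay at 36.4% for miR-29a-5p and 50% for miR-29c-5p.

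Other families and cell types were described beside miR-29 by counts and medians in tMCAO core. The miR-30 5p arms had a median log2 change of -0.73 with 1 of 5 called (miR-30e-5p, -1.87, limma adjusted p = 0.0353), and the miR-181 5p arms one of -2.22 with 0 of 4 called. In the rat means miR-181b-5p (-1.61, adjusted p = 0.0356) and miR-181c-5p (-2.29, adjusted p = 0.0123) passed, as miR-29b-3p did. Of the miRNAs known to repress DNA methyltransferases or TET enzymes, as miR-29 does, or the Polycomb enzyme Ezh2, 0 of 8 were called (median -0.54, 6 below 0). Of those known to repress Bcl-2 family messengers, whose BH3-only members are miR-29 targets, 0 of 8 tested were called (median 0.10). Over all probes the median in core was -0.05, with 3.38% called there and 11.8% in the rat means.

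Markers of other cells moved with treatment in the samples where miR-29b-3p was low, and their part in that result was not tested. Neuronal miRNAs went both ways in tMCAO core (median -0.07, 4 of 8 below 0, 0 of 8 called), with a summed level of 15.92 to 16.36 there and 16.16 to 16.31 in sham core. Among them miR-153-3p (-2.89), miR-137-3p (-2.55) and miR-218a-5p (-1.93) had tMCAO groups below sham, as for 24.2% of all probes, and 1 of 8 had its tMCAO group above sham. In the rat means these 3 of 8 were called lower (limma adjusted p = 0.0452, 0.0184 and 0.00555), beside 7.33% of all probes. Of the oligodendrocyte miRNAs 0 of 3 were called in core (summed level 11.64 to 12.30 against 12.06 to 13.99). miR-338-3p, the probe most like miR-29b-3p, was at -3.32 (limma adjusted p = 0.0903) and miR-219a-2-3p at 0.37, while miR-219a-5p was not detected on any tMCAO core array. Of the leukocyte and microglial miRNAs 2 of 5 tested were called higher in core, miR-150-5p by 1.55 and miR-155-5p, which was detected on no sham core array (limma adjusted p = 0.0318 for both), and the summed level was 12.89 to 13.59 against 11.69 to 11.98. Their defining members miR-142-3p and miR-142-5p were not detected on any tMCAO core array. Among the 5 tested 4 were above 0 and 1 was below 0, the latter with groups separate in the lower direction, as for 24.2% of all probes. Of the endothelial miRNAs 0 of 2 were called (summed level 11.87 to 12.85 against 13.03 to 13.93), with miR-126a-3p at -0.99 and miR-126a-5p not detected in tMCAO core. Of the erythroid miRNAs 0 of 2 were called in core, where miR-451-5p was at -0.01 and miR-486 at 1.91, and miR-486 was called higher in the rat means (limma adjusted p = 0.00951). Those rat means hold tMCAO peri arrays, on none of which miR-486 was detected. Of the muscle miRNAs 0 of 3 were called in core, with miR-133a-3p at 0.68, and miR-1-3p, not detected on any tMCAO array, was called lower in the rat means (limma adjusted p = 0.0103). In PostC core, where miR-29b-3p was also low, none of these markers was called (0 of 532 probes by limma). There miR-338-3p was at -3.03 and miR-153-3p at -2.52, with miR-150-5p at 1.07 and miR-451-5p at -1.22. All 4 had groups that did not overlap those of sham. Separate from sham were 2 of 8 neuronal miRNAs in the lower and 1 in the higher direction. In the lower direction so were 2 of 3 oligodendrocyte, 1 of 2 erythroid (the other above 0) and 1 of 2 endothelial miRNAs, beside 11.1% of all probes. Higher were 3 of 5 leukocyte and microglial miRNAs, for which the share of all probes is not given.

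Of the extra probes for the miR-29b passenger strands, rno-miR-29b-5p was detected on 13 arrays and its log2 change after tMCAO was -0.35 in the rat means (limma adjusted p = 0.299, groups separate) and -0.59 in core (adjusted p = 0.310). rno-miR-29b-1-5p was detected on 0 arrays and was not tested. No passenger-strand probe of the miR-29b hairpins passed in these comparisons.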

How the data were processed

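Per the labels, total RNA was given a poly(A) tail, tagged and hybridised to single-colour (Cy5) µParaflo arrays by LC Sciences. RNA extraction was by miRNeasy per the labels and by Trizol per the paper. The authors deposited the median intensity of every spot, with neither background subtraction nor normalization, and a table of background-subtracted, LOWESS-normalized intensity on a linear scale. All value columns were matched to a sample by name (0 unused).

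Spot intensities were corrected with normexp (offset 50, all spots), taken as log2, normalized by cyclic loess (control spots given no weight), and the 4 spots of each probe averaged. Detection on an array required a median spot more than 3 scaled median absolute deviations above the 612 empty spots' median. Tests covered the 532 probes with detection on 3 or more arrays, of which 141 were detected on all arrays. Groups were compared with limma 3.58.1 (lmFit, eBayes with a variance trend) in R 4.3.3, 3 treatments sharing the spread, in rat means, core, peri and core minus peri of each rat, with Benjamini-Hochberg adjustment at 0.05 over all probes tested. Fold changes are relative to the other miRNAs, since normalization assumes that rises and falls balance. Precision is limited by 3 rats per treatment. The fit was tested on simulated data.

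All probes named miR-29 were reported whatever their values, with the 4 probes most like and 2 least like each guide arm; list members were named where they passed or define a cell type. The members and lists were chosen with earlier results of these data known. Alternatives were other background corrections (plain subtraction, floor 1), quantile or median scaling, the deposited table (floor 50), other filters, no variance trend, the methods' t-test, only the groups compared, the median of spots, both regions in 1 fit, removal of a GC trend, the replicate number as a block, and leaving out each rat. The within-array comparison, its sources and its omissions were chosen after seeing the data. Rats of different treatments share only a number, and core and peri of a rat were paired. Sequences are those of the array files, and no genome was used here. Figures were drawn in matplotlib 3.10.9 with numpy 2.4.6 under Python 3.11.15.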

Additional observations from a re-analysis of the deposited data

Results flagged for a closer look

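The core minus peri difference of miR-29b-3p was above 0 in every sham rat and below 0 in every PostC rat (means 2.34 and -1.78), a difference of -4.12 between the treatments. By limma this difference had an adjusted p of 0.309. Without PostC rat 1, whose core array was under the detection limit for this probe, the PostC mean was -0.44 and the difference -2.78. For miR-29c-3p the core minus peri difference was likewise above 0 in every sham rat and below 0 in every tMCAO rat (means 1.06 and -1.56), which differed by -2.62 with a limma adjusted p of 0.425. Without tMCAO rat 2 the tMCAO mean was -0.53 and the difference -1.59, and under median scaling they were -0.82 and -1.63. With 3 rats per group, single samples were not tested for standing apart.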

How the results depend on the processing

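Over 70 miR-29 values (5 probes, 14 comparisons) recomputed 1597 times, 105 recomputed values over 34 of them changed sign; the largest of those was 0.93 in size as reported, and 0 called values changed sign. The fall of miR-29b-3p in the rat means held in 12 of 14 alternatives (log2 change -3.12 to -1.96) and was lost with plain subtraction of the empty spots (adjusted p = 0.0734) and the methods' t-test (0.0813). Its core call held in 4 of 13 (-4.20 to -3.11). Without 1 rat each, the values ran from -2.68 to -2.05 and from -4.46 to -3.25. miR-29b-3p could not be fitted among probes detected on all arrays. The causes of these changes were not tested.

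For tMCAO against sham in the rat means, 1 member was called as reported, 3 under quantile normalization or median scaling (miR-29b-3p, miR-29c-3p and miR-29a-5p), 2 with both regions in 1 fit, 0 by the methods' t-test and 0 to 2 without 1 rat. In core 1 was called as reported, 3 under quantile normalization, 0 with plain subtraction of the empty spots or of the dimmest 25%, the deposited table, no filter, no variance trend, the t-test, the median of spots or the replicate block (with or without GC removal), and 0 to 2 without 1 rat. In peri 0 were called as reported and 1 under median scaling. The replicate numbers do not pair rats; with the replicate block, miR-29b-3p had an adjusted p of 0.081 in core (0.0541 with GC removed) and 0.0115 in the rat means, and no other member's call changed. Over all probes, 63 calls in the rat means became 124 (quantile), 130 (median scaling), 111 (dimmest 25% subtracted) and 23 (t-test), and 8 to 96 without 1 rat. In core 18 became 40 (only the groups compared), 5 (deposited table), 7 (empty spots subtracted), 3 (t-test or replicate block), 1 (replicate block and GC), and 0 to 27 without 1 rat, and in peri 3 became 128 (median scaling), 27 (only the groups compared), 7 (replicate block) and 0 to 36. For PostC against tMCAO in core 12 became 3 with the replicate block.

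Small values turned sign. For tMCAO against sham in the rat means, miR-29a-3p (0.02) was -0.44 with the empty spots subtracted, -0.12 under quantile normalization, -0.082 under median scaling, -0.044 in the deposited table and -0.14 to 0.18 without 1 rat. miR-29c-5p (0.07) was -0.65 under median scaling, -0.026 in the deposited table and -0.15 to 0.20 without 1 rat. In core miR-29c-5p was 0.42 and 0.075 under the 2 subtractions, 0.14 under quantile normalization and -0.22 to 0.17 without 1 rat. In peri miR-29c-3p was 0.064 with the dimmest 25% subtracted, 0.16 with GC removed (with or without the replicate block), 0.021 with the median of spots and -0.22 to 0.31 without 1 rat. Under median scaling miR-29a-3p in peri was -0.090, miR-29c-3p for PostC against sham in peri -0.048, and core minus peri in tMCAO rats 0.010 for miR-29a-3p and 0.10 for miR-29b-3p (-0.99 to 0.15 without 1 rat); the core minus peri change of miR-29a-3p was 0.016. The medians of all probes under this scaling were -0.42 in peri, 0.11 for core minus peri in tMCAO rats and 0.24 for its change, and relative to them miR-29a-3p was 0.33, -0.096 and -0.22. For PostC against tMCAO in core, miR-29b-3p was -1.27 and -0.75 under the 2 subtractions and -0.42 to 1.36 without 1 rat.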
